A study of Caenorhabditis elegans with 12 samples.

Results

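The 6 alpha-class carbonic anhydrase genes of *C. elegans* whose symbols are *cah-1* to *cah-6* were followed in RNA from sorted BAG neurons, out of 46766 annotated genes. The genes were taken by symbol and not by their measured values, though earlier results of these data were known. All 6 had a value in every library. *arcp-1* mutants (strain AX7207) carried the alleles *arcp-1(db1082)* and *npr-1(ad609)*, and *npr-1* controls (strain AX7210) carried *npr-1(ad609)* alone. Both genotypes were thus mutant for the neuropeptide receptor NPR-1, and both held the transgene *ynIs64*, which expresses GFP from the *flp-17* promoter and is the label on which cells were sorted. The allele *db1082* affects *arcp-1*, which encodes an ankyrin-repeat protein of sensory cilia, and each genotype was represented by 1 strain. For each genotype, 6 libraries were prepared from day 1 adults grown at 20 degrees Celsius, with an average of 4000 sorted cells per library. *arcp-1* mutants were compared with *npr-1* controls to ask how the loss of ARCP-1 alters transcript levels in a CO2-sensing neuron.

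Carbonic anhydrases catalyse the reversible conversion of CO2 and water to bicarbonate and a proton. The alpha class holds a zinc ion in its active site, and some members of the family in animals have lost residues needed for catalysis and are known as related proteins without that activity. BAG neurons are ciliated head neurons that drive avoidance of CO2, and the receptor-type guanylyl cyclase GCY-9 is their receptor for this gas. Bicarbonate and protons are moved across membranes by anion transporters of the SLC4 and SLC26 families, by sodium-proton exchangers and by the V-ATPase proton pump.

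In libraries of sorted BAG neurons from *arcp-1* mutants, *cah-1* transcripts averaged 3.80 times and *cah-5* transcripts 0.321 times their mean in *npr-1* controls. Neither gene passed the adjusted threshold of the main test. *cah-3* averaged 0.588 times its control mean and did not pass either. The 3 other genes, *cah-2*, *cah-4* and *cah-6*, had 95% intervals of their log2 fold changes that included 0. With limma (adjusted p below 0.05 over 12096 genes), 0 of the 6 genes were called, where 1.66% of all genes tested were called. Without adjustment, *cah-1*, *cah-3* and *cah-5* had a limma p below 0.05, that is 3 of the 6 genes, against 10.4% of all genes tested. edgeR called 0 of the 6, where it called 1.64% of all genes, and an unadjusted edgeR p below 0.05 was found for 3 of the 6 and 10.8% of all genes. DESeq2 called 2 of the 6, *cah-1* as higher and *cah-5* as lower, where it called 3.47% of all genes. The calls for these genes thus differed between tools.

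The depth of a library was between 374550 and 8683395 recovered reads in *arcp-1* mutants (median 4029926.5) and between 540884 and 7594719 in *npr-1* controls (median 5335269), and 2 libraries of each genotype, mutant replicates 3 and 4 and control replicates 1 and 5, held fewer than 2000000 reads. A normalized count is the number of reads divided by the size factor of the library, so that 3 reads, the level that a count of 0 still allows, correspond to 0.882 to 19.2 normalized counts depending on the library. *arcp-1* itself had 704, 2500 and 4277 normalized counts in *arcp-1* mutants and 3288, 8177 and 12360 in *npr-1* controls (lowest, median, highest), and 5 of 6 mutant libraries lay below the lowest control (log2 fold change -1.76, SE 0.40, limma adjusted p = 0.0308). All 6 BAG markers (*flp-17*, *flp-10*, *gcy-9*, *gcy-31*, *gcy-33* and *ets-5*) were detected and 0 of them were called. Their summed level was 885 TPM (a unit of transcript level corrected for gene length and library size) in mutant replicate 1 and 2203 to 4482 TPM in the other mutants, and 825 TPM in control replicate 1 and 1903 to 3929 TPM in the other controls. These libraries stand apart from the rest of their genotypes, and the log2 fold changes of the members are also given without both of them. Of the BAG markers, *flp-10* was low, at 3.22 ± 3.33 normalized counts in *arcp-1* mutants and 4.85 ± 3.02 in *npr-1* controls (SD, n = 6 each). These means lie within the range that 3 reads correspond to. In the mean of the BAG markers used below, *flp-10* weighs as much as each other marker. Markers of body wall muscle summed to 4568 to 11311 TPM in *arcp-1* mutants and 3487 to 11775 TPM in *npr-1* controls, mostly from the myosin gene *unc-54* (mean 5665 TPM in *arcp-1* mutants, 6322 TPM in *npr-1* controls) and *pat-10* (1412 TPM in *arcp-1* mutants, 1417 TPM in *npr-1* controls), while *myo-3* averaged 12.2 TPM in *arcp-1* mutants and 17.3 TPM in *npr-1* controls. Markers of hypodermis summed to 1799 to 4315 TPM in *arcp-1* mutants and 1690 to 3991 TPM in *npr-1* controls, so markers of other tissues were present beside those of BAG. In such bulk RNA, fewer cells that express a gene and less RNA per cell cannot be told apart. Which cells the carbonic anhydrase transcripts came from was not tested.

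The carbonic anhydrase genes differed widely in level, which was compared between genes on the TPM scale. Their summed level was 246 ± 49.7 TPM in *arcp-1* mutants and 254 ± 18.9 TPM in *npr-1* controls (SD, n = 6 each). In *arcp-1* mutants, *cah-6* had the highest mean, at 85.8 ± 30.3 TPM, and was above *cah-2* (61.8 ± 28.0 TPM) in 6 of 6 libraries. *cah-2* was above *cah-3* (39.0 ± 9.75 TPM) in 5 of 6 mutant libraries. *cah-3* and *cah-4* (34.6 ± 11.6 TPM) were close, with *cah-3* higher in 4 of 6. *cah-4* was above *cah-1* (19.5 ± 8.87 TPM) in 5 of 6, and *cah-1* was above *cah-5* (5.57 ± 2.90 TPM) in 6 of 6. In *arcp-1* mutants, only the neighbours *cah-6* and *cah-2*, and *cah-1* and *cah-5*, kept their order in every library.

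In *npr-1* controls the 3 most abundant genes did not differ beyond their spread: *cah-6* averaged 69.3 ± 12.1 TPM, *cah-3* 66.4 ± 26.05 TPM and *cah-2* 63.6 ± 13.6 TPM (SD, n = 6). *cah-6* exceeded *cah-3* in 4 of 6 control libraries, and *cah-3* exceeded *cah-2* in 3 of 6. *cah-4* followed at 31.7 ± 18.5 TPM, below *cah-2* in 5 of 6. *cah-5* averaged 17.9 ± 8.57 TPM and was below *cah-4* in 4 of 6 control libraries, and *cah-1* was the lowest, at 4.87 ± 3.43 TPM, below *cah-5* in 6 of 6. *cah-1* and *cah-5* thus stood in opposite order in the 2 genotypes in every library. By rank of mean TPM among all annotated genes, *cah-1* was number 5053 in *arcp-1* mutants and 9978 in *npr-1* controls, whereas *cah-5* was number 9625 in *arcp-1* mutants and 5332 in *npr-1* controls. The other 4 genes ranked between 1321 and 3255 in *arcp-1* mutants and between 1595 and 3442 in *npr-1* controls.

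**Figure D1:**
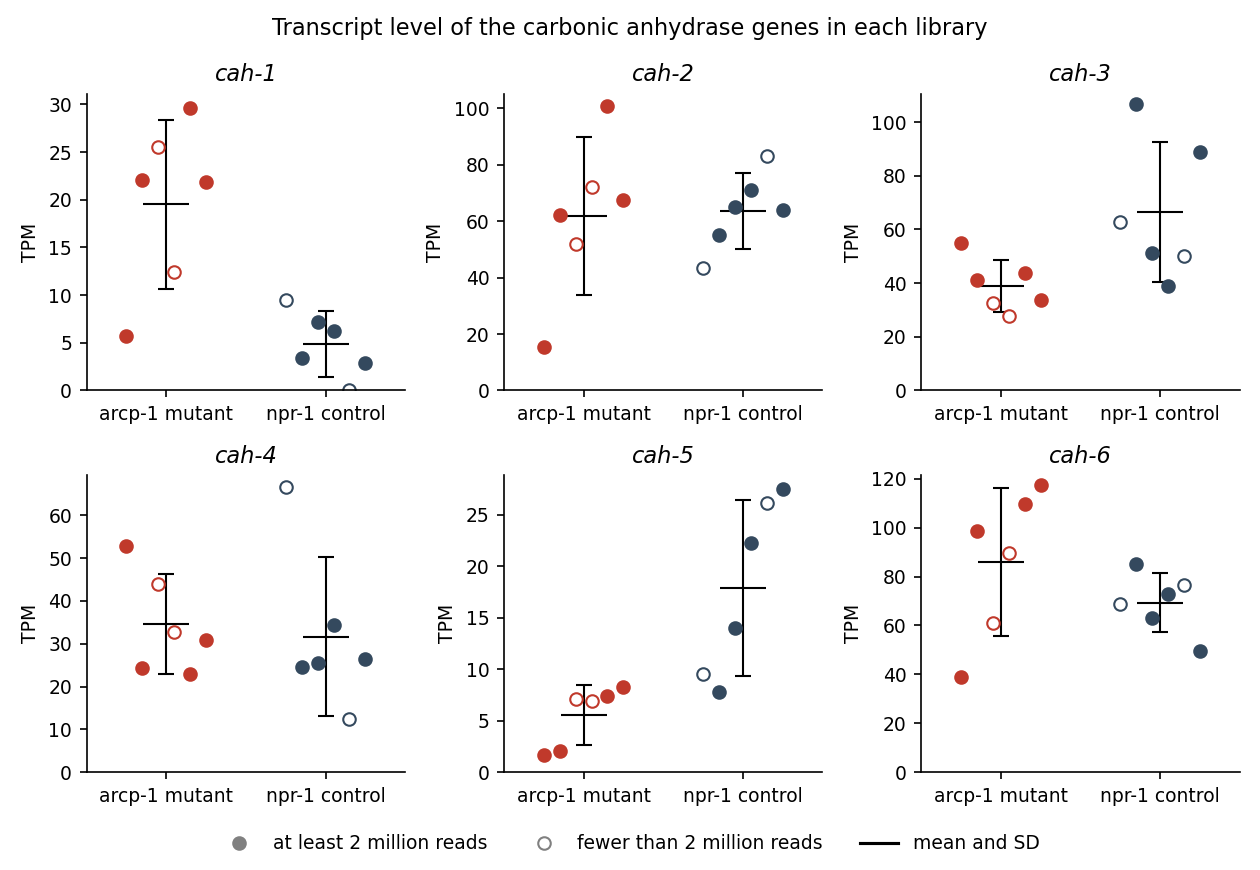
Level of each carbonic anhydrase gene in TPM (vertical axes, each from 0) in the 6 *arcp-1* mutant libraries (left, red) and the 6 *npr-1* control libraries (right, dark blue), in order of replicate number within a genotype, with open symbols for libraries below 2000000 reads and bars for the mean and SD. *cah-1* was above the highest control in 5 of 6 mutants, while every mutant value of *cah-4* lay within the control range. *cah-5* was below the lowest control in 5 of 6 mutants, but only narrowly in replicates 3, 4 and 5.

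*cah-1* (WBGene00000279, chromosome III, 5083206 to 5085289 on the minus strand of WS255) was the gene with the largest fold change of the 6. Its annotation holds 2 transcripts with 6 merged exons and a longest coding sequence of 303 codons. It had 8.53, 33.1 and 42.1 normalized counts in *arcp-1* mutants and 0, 6.75 and 18.05 in *npr-1* controls (lowest, median, highest). The genotypes overlapped only through mutant replicate 1, the lowest mutant, and 6 of 6 mutants lay above the control median. Mutant replicate 4 barely exceeded the highest control, at 18.4 normalized counts from 3 reads against 18.05 from 5 reads in control replicate 1. Both of these libraries were shallow. For comparison, 3.53% of all genes tested had at least 5 of 6 mutant libraries above the highest control. The means were 28.9 ± 12.9 normalized counts in *arcp-1* mutants and 7.61 ± 6.24 in *npr-1* controls (SD, n = 6 each). On the log2(normalized count + 1) scale the fold change was 2.09 (SE 0.65, 95% interval 0.71 to 3.48), with a limma adjusted p of 0.162 over all genes and an unadjusted p of 0.0130 in a two-sided exact permutation test over all assignments of the 12 libraries. DESeq2 gave an adjusted p of 0.00752, limma with library weights 0.0123 and edgeR 0.114.

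The *cah-1* values rest on few reads. Between 3 and 84 reads were recovered from *arcp-1* mutants and between 0 and 25 from *npr-1* controls. Mutant replicate 4, a shallow library, had 3 reads, equivalent to 18.4 normalized counts with an exact Poisson interval of 3.79 to 53.7. Control replicate 5, also shallow, had 0 reads, with an exact Poisson interval of 0 to 15.7 normalized counts (3 reads correspond to 12.7 there). These intervals cover counting error only, since Smart-seq2 does not tag single molecules and PCR copies count as reads. In the 4 libraries of each genotype with at least 2000000 reads, *cah-1* averaged 29.2 ± 14.4 normalized counts in *arcp-1* mutants and 6.91 ± 2.93 in *npr-1* controls (SD, n = 4 each), with 3 of the 4 mutants above the highest control and an exact permutation p of 0.0857, where the smallest p that 70 assignments allow is 0.0286. The replicate 1 libraries had the lowest BAG marker levels, and for *cah-1* they were also the lowest mutant and the highest control. Leaving out both, a setting chosen after the data were seen, therefore had to widen the *cah-1* difference. In that setting 371 of 12096 genes were called. Without both replicate 1 libraries the log2 fold change of *cah-1* was 2.71 and the limma adjusted p was 0.0204, which passed the threshold. With the mean of the BAG markers as a covariate it was 2.11 with a limma adjusted p of 0.130. The 3 coelomocyte markers (*cup-4*, *unc-122* and *lgc-26*) lay below the filter and were not tested. They summed to 0.312, 13.3 and 73.1 TPM in *arcp-1* mutants and to 0, 1.06 and 11.4 TPM in *npr-1* controls (lowest, median, highest). Mutant replicates 3, 4 and 5 were above every control. Mutant replicates 1, 2 and 6 held 0.312, 0.587 and 1.26 TPM of these markers, within the control range. Their *cah-1* levels were 5.72, 22.1 and 21.8 TPM, where the highest control was at 9.53 TPM. The part of the coelomocyte markers in the *cah-1* difference was not tested.

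*cah-5* (WBGene00000283, chromosome X, 7020033 to 7023950, plus strand) differed in the opposite direction. It has 1 annotated transcript of 6 exons and 310 codons. It had 2.94, 12.4 and 15.3 normalized counts in *arcp-1* mutants and 12.9, 30.4 and 47.5 in *npr-1* controls (lowest, median, highest). All 6 mutants lay below the control median and 5 of 6 below the lowest control, and the overlap came from mutant replicate 6 and control replicate 2. Mutant replicates 3, 4 and 5 lay only just below the lowest control, at 12.8, 12.3 and 12.5 against 12.9 normalized counts. In replicates 3 and 4, with 2 reads each, 1 read equals 6.40 and 6.13 normalized counts, more than that gap. At least 5 of 6 mutant libraries lay below the lowest control for 2.31% of all genes tested. The means were 9.92 ± 5.24 normalized counts in *arcp-1* mutants and 30.9 ± 13.5 in *npr-1* controls (SD, n = 6 each). The log2 fold change was -1.62 (SE 0.49, 95% interval -2.66 to -0.58), the limma adjusted p was 0.145 and the unadjusted exact permutation p was 0.00433, where 0.00216 is the smallest that the design allows. DESeq2 gave an adjusted p of 0.0359, limma with library weights 0.0474 and edgeR 0.156.

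As for *cah-1*, the reads behind *cah-5* were few, between 2 and 38 in *arcp-1* mutants and between 6 and 140 in *npr-1* controls. Each of the shallow mutant replicates 3 and 4 held 2 reads, and their Poisson intervals, 1.55 to 46.2 and 1.48 to 44.3 normalized counts, span most of the control values. In the 4 deeper libraries of each genotype *cah-5* averaged 8.61 ± 6.24 normalized counts in *arcp-1* mutants and 30.3 ± 15.2 in *npr-1* controls (SD, n = 4 each), with an exact permutation p of 0.0571. Without both replicate 1 libraries limma gave -1.44 as log2 fold change (adjusted p = 0.146). Markers of the oxygen-sensing URX, AQR and PQR neurons summed to 23.6, 116 and 285 TPM in *arcp-1* mutants and to 98.0, 337 and 3173 TPM in *npr-1* controls (lowest, median, highest). Of these 6 markers, 5 were tested and 0 were called, *gcy-34* was below the filter, and their part in the *cah-5* difference was not tested.

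**Figure D2:**
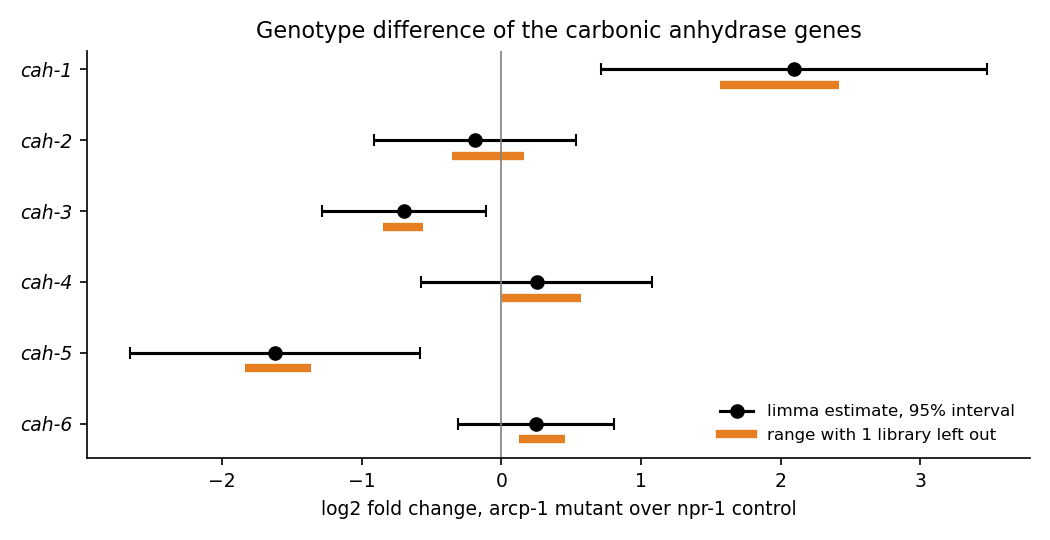
Log2 fold change of each carbonic anhydrase gene, *arcp-1* mutant over *npr-1* control, on the log2(normalized count + 1) scale (horizontal axis), with the limma estimate and its 95% interval (black) and the range of the estimate when each of the 12 libraries was left out in turn (orange). *cah-1* stayed between 1.57 and 2.42 and *cah-5* between -1.83 and -1.36, whereas the range of *cah-2* included 0.

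*cah-3* (WBGene00000281, chromosome X, 16487481 to 16489397, plus strand) has 1 transcript of 4 exons and the shortest coding sequence of the 6 genes, 246 codons. It had 49.0, 66.7 and 97.1 normalized counts in *arcp-1* mutants and 64.7, 113 and 176 in *npr-1* controls (lowest, median, highest). The genotypes overlapped, with 3 of 6 mutants below the lowest control and 6 of 6 below the control median. The log2 fold change was -0.70 (SE 0.28, 95% interval -1.28 to -0.11), with a limma adjusted p of 0.348 and an unadjusted exact permutation p of 0.0411. In the deeper libraries the exact permutation p was 0.229, and without both replicate 1 libraries limma gave -0.73 as log2 fold change (adjusted p = 0.238). Markers of germline summed to 132, 157 and 389 TPM in *arcp-1* mutants and to 177, 192 and 352 TPM in *npr-1* controls (lowest, median, highest). Of these 6 markers, 0 had a log2 fold change above 0 and 0 were called. Their part in the *cah-3* difference was not tested.

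*cah-2* (WBGene00000280, chromosome II, 7480751 to 7483109, minus strand), with 9 exons and 337 codons the longest coding sequence of the 6, had 30.3, 129 and 188 normalized counts in *arcp-1* mutants and 101, 120 and 149 in *npr-1* controls (lowest, median, highest). The mutant values lay on both sides of the controls, and mutant replicate 1 was far below every other library. The log2 fold change was -0.19 (SE 0.34, 95% interval -0.91 to 0.53, limma adjusted p = 0.901), and it was 0.16 without mutant replicate 1 (limma adjusted p = 0.798) and 0.13 without both replicate 1 libraries. No direction can therefore be given for *cah-2*.

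*cah-4* (WBGene00000282, chromosome X, 13542574 to 13544599, plus strand; 2 transcripts, 7 merged exons, 280 codons) had 41.0, 60.8 and 99.1 normalized counts in *arcp-1* mutants and 21.2, 46.3 and 159 in *npr-1* controls (lowest, median, highest). The control range enclosed every mutant value, and its top value came from control replicate 1 alone. The log2 fold change was 0.25 (SE 0.39, 95% interval -0.57 to 1.08, limma adjusted p = 0.880), and with any 1 library left out it lay between 0.0034 (without control replicate 5) and 0.57 (without control replicate 1). It was 0.44 without both replicate 1 libraries, 0.086 with edgeR and 0.073 with DESeq2.

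*cah-6* (WBGene00000284, chromosome I, 3629471 to 3631112, plus strand; 2 transcripts, 6 merged exons, 319 codons) had 85.0, 204 and 268 normalized counts in *arcp-1* mutants and 106, 152 and 191 in *npr-1* controls (lowest, median, highest). Of the mutants, 4 lay above the highest control and replicate 1 lay below the lowest. The log2 fold change was 0.25 (SE 0.26, 95% interval -0.31 to 0.80), with a limma adjusted p of 0.820 and an exact permutation p of 0.387. It was 0.45 without mutant replicate 1 (limma adjusted p = 0.386), 0.12 without mutant replicate 6, 0.53 without both replicate 1 libraries (limma adjusted p = 0.256) and 0.63 with library weights (limma adjusted p = 0.114). In the Ensembl annotation 22 exon bases of *cah-6*, 1.53% of its exon length, overlap *jmjc-1* on the opposite strand, and reads there cannot be assigned without strand.

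The make-up of the summed TPM of the 6 genes was described as the share of each gene, with no test. *cah-1* took 7.68 ± 2.98% in *arcp-1* mutants and 1.95 ± 1.40% in *npr-1* controls, and *cah-5* took 2.19 ± 1.04% in *arcp-1* mutants and 7.14 ± 3.45% in *npr-1* controls (SD, n = 6 each). *cah-3* took 16.8 ± 7.86% in *arcp-1* mutants and 25.8 ± 8.46% in *npr-1* controls. *cah-6* was the largest share in *arcp-1* mutants, at 33.9 ± 7.34%, and also in *npr-1* controls by TPM, at 27.3 ± 4.30%. By normalized count per kb of exon, *cah-3* (26.3%) and *cah-6* (26.04%) took about the same share in *npr-1* controls. The genes with the largest fold changes, *cah-1* and *cah-5*, therefore made up a small part of the carbonic anhydrase transcripts. In percentage points the mean share of *cah-3* shifted most, and it was larger than that of either gene in both genotypes. The shares of *cah-2* (23.9 ± 8.03% in *arcp-1* mutants, 25.3 ± 6.34% in *npr-1* controls) and *cah-4* (15.4 ± 8.82% in *arcp-1* mutants, 12.5 ± 7.08% in *npr-1* controls) were within 1 SD of each other in the 2 genotypes.

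**Figure D3:**
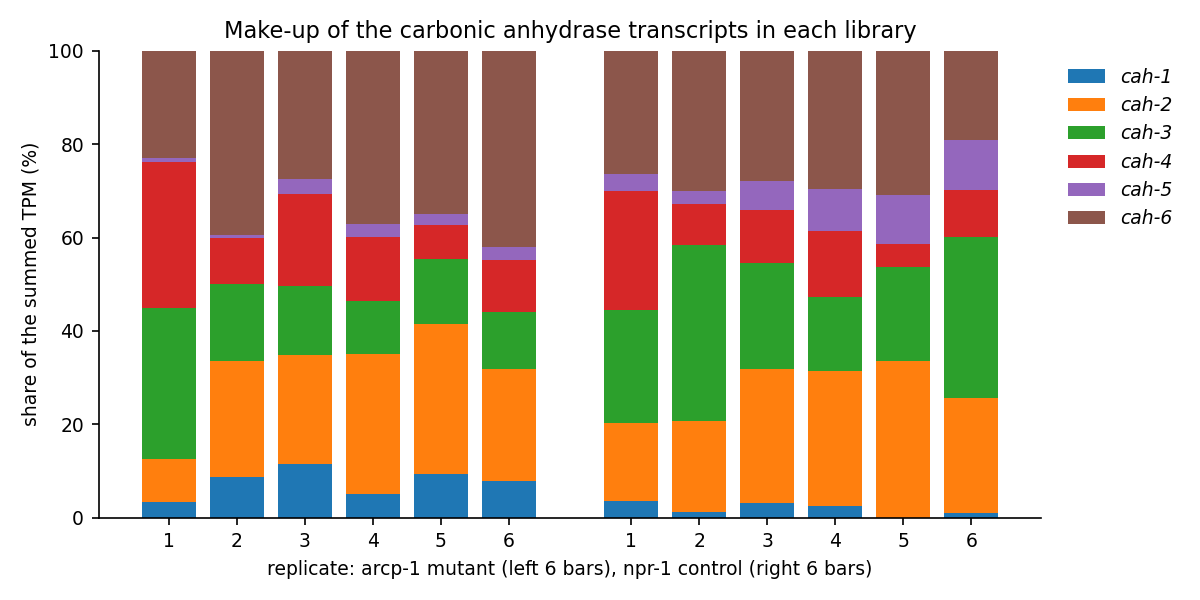
Share of each carbonic anhydrase gene in the summed TPM of the 6 genes (vertical axis, percent), for the 6 *arcp-1* mutant libraries (left) and the 6 *npr-1* control libraries (right), 1 bar per library by replicate number. *cah-6* took 22.9% to 42.0% in *arcp-1* mutants and 19.2% to 30.8% in *npr-1* controls. In each genotype the share of *cah-4* was higher in replicate 1 than in any other library.

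Ratios between genes of 1 library do not depend on the size factor of that library. Of the 15 pairs, 2 had TPM ratios that did not overlap between the genotypes. The share over pairs of other genes was not computed, so whether 2 of 15 is unusual cannot be told. Among single genes tested, the normalized counts of 1.95% did not overlap between the genotypes, in either direction. The ratio of *cah-1* to *cah-5* was 1.79, 3.53 and 10.5 in *arcp-1* mutants and 0, 0.360 and 0.997 in *npr-1* controls (lowest, median, highest). Every mutant library thus held more *cah-1* than *cah-5*, and every control library more *cah-5* than *cah-1*, but in shallow libraries the order rested on 1 read. Mutant replicate 4 held 3 reads of *cah-1* and 2 of *cah-5*, and control replicate 1 held 5 reads of *cah-1* and 6 of *cah-5* (9.53 and 9.56 TPM). The ratio of *cah-2* to *cah-5* was 7.29, 9.93 and 29.7 in *arcp-1* mutants and 2.32, 3.87 and 7.08 in *npr-1* controls. Both pairs share *cah-5* and were chosen after their values were seen, so they carry no test.

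Levels of some of these genes moved with the BAG marker level across libraries. After the mean of each genotype was subtracted, *cah-2* had a Pearson's r of 0.85 with the mean of the BAG markers over 12 libraries (permutation p = 0.00126, adjusted p = 0.0151 over 12 relations; Spearman's rho 0.71, permutation p = 0.0135, adjusted p = 0.0811). *cah-5* had an r of 0.76 (permutation p = 0.00633, adjusted p = 0.0308; rho 0.80, permutation p = 0.00570, adjusted p = 0.0684). *cah-4* had an r of -0.66 (permutation p = 0.00770, adjusted p = 0.0308; rho -0.59, permutation p = 0.0572, adjusted p = 0.172). By Spearman's rho, none of the 3 relations passed an adjusted p of 0.05. Both replicate 1 libraries were farthest from the median of the marker level, and without them r was 0.69 for *cah-2*, 0.67 for *cah-5* and -0.32 for *cah-4*, so that the *cah-4* relation rested on those libraries. The coefficients for *cah-1* (0.07), *cah-3* (-0.52) and *cah-6* (0.45) had adjusted permutation p-values of 0.903, 0.169 and 0.383. With body wall muscle markers, 0 of the 6 genes had an adjusted permutation p below 0.05, and the lowest was 0.102, for *cah-4* (r 0.62). With the BAG marker mean as a covariate, *cah-5* had a log2 fold change of -1.50 and a limma adjusted p of 0.0662.

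**Figure D4:**
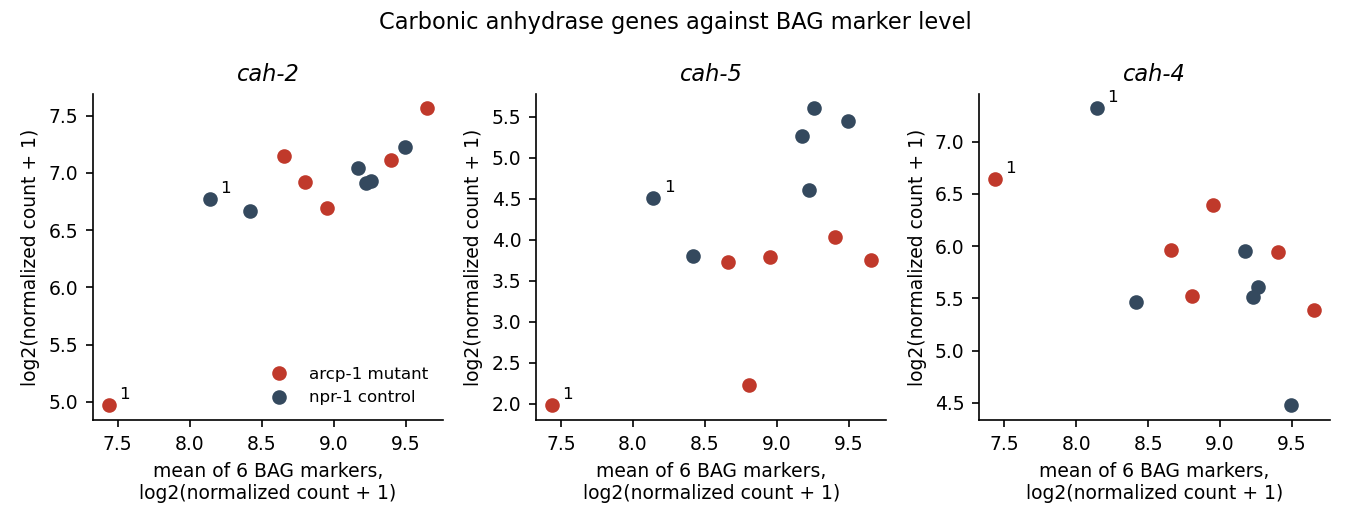
Level of *cah-2*, *cah-5* and *cah-4* (vertical axes) against the mean of the 6 BAG markers (horizontal axes), all as log2(normalized count + 1), with 1 point per library, *arcp-1* mutants in red, *npr-1* controls in dark blue, and replicate 1 of each genotype marked. *cah-2* and *cah-5* were higher in libraries with more BAG marker transcript. For *cah-5* the mutants lay below the controls at like marker levels. Mutant replicates 3 and 4 (12.8 and 12.3 normalized counts, 2 reads each) were only just below control replicate 2 (12.9).

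The genes of most similar pattern were those with the highest r over the 12 libraries after the genotype means were subtracted. For *cah-5*, the member with the smallest limma p, these were *pnn-1* (r 0.98, rho 0.97), *pfd-4* (r 0.92, rho 0.81) and *D1069.3* (r 0.91, rho 0.83). *cah-2* was most like *osm-12* (r 0.98, rho 0.92). *cah-3* was most like *nos-3* (r 0.97), *cah-1* like *Y50D4B.1* (r 0.95), *cah-4* like *F43D2.6* (r 0.93) and *cah-6* like *usp-33* (r 0.93). As maxima over all genes tested, these coefficients are given without a p-value, and all 8 similar genes had a limma adjusted p above 0.05 for genotype.

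Beside the 6 members, genes that handle bicarbonate and protons were described from lists. Of 52 genes, 51 matched a symbol and 46 passed the filter, and with limma 0 were called in either direction (1.66% of all genes tested were called). An unadjusted limma p below 0.05 was found for 4 of the 46, against 10.4% of all genes tested. Their median log2 fold change was -0.09, beside -0.02 for all genes tested, and 14 of the 46 were above 0, where 47.8% of all genes tested were. The beta carbonic anhydrases, which belong to a separate enzyme class, were low in both genotypes. *bca-1* averaged 15.5 ± 10.3 TPM in *arcp-1* mutants and 10.7 ± 2.10 TPM in *npr-1* controls (log2 fold change 0.30, limma adjusted p = 0.872), and *bca-2* averaged 12.5 ± 3.70 TPM in *arcp-1* mutants and 16.4 ± 4.49 TPM in *npr-1* controls (log2 fold change -0.37, limma adjusted p = 0.771). Of the anion transporters, 1 of the 10 tested had a log2 fold change above 0 (median -0.34), as did 4 of the 7 sodium-proton exchangers (median 0.26), 6 of the 21 V-ATPase subunits (median -0.05) and 2 of the 6 carboxylases that use bicarbonate (median -0.13). The 4 with an unadjusted p below 0.05, named after their values were seen, were *vha-18*, a V-ATPase subunit gene (log2 fold change 1.03, limma adjusted p = 0.0864), *sulp-8*, an anion transporter gene (-0.83, 0.139), and *pccb-1* (-0.74, 0.225) and *pcca-1* (-0.43, 0.321), the subunit genes of propionyl-CoA carboxylase.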

How the data were processed

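RNA of sorted BAG neurons from 6 *arcp-1* mutant and 6 *npr-1* control libraries was amplified with Smart-seq2. Cells were sorted on GFP with gates set against *npr-1* suspensions of the same day. Per the methods of the study, the authors took out ribosomal reads (Bowtie2), trimmed the rest (Trim Galore), mapped them to WS255 (STAR) and counted them per gene with no use of strand (HTSeq). For 22542 genes, signal values were deposited by the authors as normalized counts, that is reads over the DESeq2 size factor of the library. TPM was deposited for 46766 genes and sums to 1000000 per library. Another deposited table holds the authors' own DESeq2 comparison (group means, log2 fold changes, test statistics, p-values and adjusted p-values), from which only symbols and loci were taken.

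All normalized counts above 0 (100% within a tolerance of 0.01) were whole multiples of 1 read, from which reads were recovered. Recovered totals ranged from 374550 to 8683395, so low genes are less precise in the 4 libraries below 2000000 reads. No 2 replicates were copies (lowest chi-square per gene 5.40 in mutants, 7.57 in controls). The study calls the replicates biological, the labels name no separate cultures, and p-values measure the spread between these libraries.

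limma 3.58.1 in R 4.3.3 (lmFit, eBayes with trend) was fitted to log2(normalized count + 1) for 12096 genes (CPM no lower than 1 in at least 6 libraries), with Benjamini-Hochberg adjusted p below 0.05 as threshold. This CPM was computed from recovered reads. Single genes were compared by two-sided exact permutation over all assignments of the libraries, and marker relations by 100000 permutations within genotype. edgeR 4.0.16 (quasi-likelihood) and DESeq2 1.42.0 on recovered reads were alternatives, as were other pseudocounts, filters, scalings, library weights, a replicate block, and libraries left out in turn. The fits were tested on simulated data. Positions are the authors' WS255 loci, and transcripts and exons come from the Ensembl annotation, in which *cah-1* and *cah-6* extend further. The symbol *mccc-2* was not matched. The named genes were the 6 members, *bca-1*, *bca-2*, list genes past the threshold (0 passed) and the genes of most similar pattern, and 4 list genes were added by unadjusted p after their values were seen. The members, lists and tests were chosen with earlier results of these data known. Markers of BAG, body wall muscle, pharyngeal muscle, intestine, hypodermis, germline, glia, excretory cell, coelomocytes, URX, AQR and PQR, other sensory neurons and motor neurons were examined, and with limma 0 of their tested genes were called (0 of 3 coelomocyte markers passed the filter). No sequences are shown.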

Additional observations from a re-analysis of the deposited data

Results flagged for a closer look

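Of the 12 groups tested (6 genes in 2 genotypes), 1 had a library far from the others of its genotype. *cah-4* in *npr-1* control replicate 1 was at 159 normalized counts, and its gap to the next library was 0.712 of the range of the group. Chance gives about 1 such group in 20 if values are normally distributed, and 12 groups were tested. The gap was measured on normalized counts and not on their log2 values. The same library had the lowest summed BAG marker level of the controls, 825 TPM, and the highest summed level of URX, AQR and PQR markers, 3173 TPM. It held fewer than 2000000 reads. The part of these differences in its *cah-4* level was not tested.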

How the results depend on the processing

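The limma call of 201 genes was 484 with library weights, 404 with DESeq2, 110 in the libraries of at least 2000000 reads and 99 after low genes (mean under 100 normalized counts) were removed. It ranged from 124 without mutant replicate 6 to 329 without mutant replicate 1. Of the 6 carbonic anhydrase genes, limma called 0, and leaving out any 1 library gave 0. Library weights called 2 and DESeq2 called 2, *cah-1* and *cah-5* both times. In alternatives chosen after seeing the data, leaving out both replicate 1 libraries gave 371 genes and 1 member, *cah-1*, and the BAG marker mean as a covariate gave 364 genes and 0 members. The causes were not tested. The log2 fold change of *cah-2* was 0.058 with library weights, 0.0070 with edgeR, 0.16 without mutant replicate 1 and 0.13 without both replicate 1 libraries, and ranged from -0.36 to 0.16 with any 1 library left out. The other members kept their direction in every alternative that could be fitted. *cah-1*, *cah-3*, *cah-4* and *cah-5* lay below the filter of 100 normalized counts and could not be fitted there.

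Same-numbered libraries did not all deviate together (correlations of 0.04 to 0.32), and only replicates 2 and 4 correlated best with their own number, so the numbers were not taken as pairs. With the replicate block, 291 genes and 0 members were called, and the adjusted p was 0.201 for *cah-1* and 0.0658 for *cah-5*. Depth limits *cah-1* and *cah-5* most, since single libraries held 0 to 6 reads of *cah-1* and 2 to 10 reads of *cah-5* where fewer than 2000000 reads were recovered.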
